A study of Homo sapiens with 6 samples.

Results

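The transcripts of 10 secreted growth factors were followed in colorectal cancer stem cells in which the surface antigen PSCA was targeted by siRNA. The 10 genes are KITLG (stem cell factor), PDGFA, PDGFB, PDGFC, VEGFA, VEGFB, VEGFC, PGF, ANGPTL4 and FGFBP1, out of 58735 genes in the deposited expression table. They were chosen by name, as ligands of receptor tyrosine kinases and related angiogenic factors, with fold changes of this same contrast already known. Their fold changes are therefore given as a description, with no test.

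RNA-seq was performed on HCT116SCs, which are CD44+CD326+ cells sorted with magnetic beads from HCT116, an established human colorectal carcinoma line. Both groups carried the wild-type genotype label and were grown as spheres without serum, in DMEM/F12 with B27 and with EGF and bFGF at 20 ng/mL each. They were harvested 48 h after transfection with negative control siRNA (NC, n = 3) or PSCA siRNA (siPSCA, n = 3), and no untransfected library was among them. Which of the PSCA siRNA sequences entered the sequenced cells is not stated, and the titles of siPSCA 2 and siPSCA 3 carry other numbers after HCT, whereas their remaining labels name HCT116.

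Stem cell factor is made as a membrane-bound protein that can be shed, and it activates the receptor KIT. PDGF chains pair into dimers that bind PDGFRA and PDGFRB, whereas VEGF family ligands bind FLT1, KDR and FLT4 with neuropilins as co-receptors, and in tumours both families are known for signals from cancer cells to vessels and stroma. ANGPTL4 inhibits lipoprotein lipase and is secreted under fasting and low oxygen, and FGFBP1 carries fibroblast growth factors away from the matrix.

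Reads on genes ranged from 16099716 to 17302219 per library. The labels name replicates without saying whether they were separate cultures, so p-values measure the spread between these libraries only. PSCA itself had 4, 12 and 15 reads in NC and 9, 9 and 7 reads in siPSCA, so its groups overlapped and the targeted transcript was too low to check the knockdown. By Western blot the paper reports lower PSCA protein in HCT116SCs with every PSCA siRNA it used, a measure of protein that these libraries do not hold. NC 3 stood apart from the other NC libraries, with a distance in log2(FPKM + 1) of 48.1 and 45.8 to NC 1 and NC 2, which were 31.5 apart. EPCAM, which encodes CD326, had 107 ± 14.4 FPKM in NC and 95.0 ± 2.1 FPKM in siPSCA (SD, n = 3 each), and CD44 had 82.6 ± 4.36 and 60.7 ± 1.51 FPKM (adjusted p = 0.00193 in limma). The 8 epithelial markers summed to 779 to 836 FPKM in NC and 841 to 871 FPKM in siPSCA, with 6 of 8 at a mean of at least 1 and CEACAM5 at 0 reads. The 8 endothelial markers summed to at most 0.555 FPKM in any library and the 6 leukocyte markers to at most 0.535 FPKM, with CD68 and CD3E at 0 reads. The 8 fibroblast and pericyte markers summed to 9.38 to 10.4 FPKM in NC and 9.39 to 9.83 FPKM in siPSCA, of which COL1A1 and RGS5 alone had a mean of at least 1, and LUM had 0 reads. RGS5, a pericyte marker, fell by 0.70 on the log2 scale (adjusted p = 0.00551 in limma) and CDX2, an intestinal transcription factor, rose by 0.70 (adjusted p = 0.00387). With the trend that fold changes follow in GC content and length removed, they were at -0.35 and 0.39, and RGS5 lost its call when NC 3 was left out as well (-0.30, adjusted p = 0.0581). COL1A1 stood higher in siPSCA without a call (0.35, adjusted p = 0.111 in limma), and at -0.06 with the trend removed. Of the other epithelial markers tested, KRT8 (0.22) and KRT19 (0.25) were called higher and CD44 (-0.44) lower. EPCAM (-0.16) and KRT18 (-0.14) were not called. With the trend removed KRT8, KRT19 and CD44 were at -0.02, -0.27 and -0.29. The median over the epithelial markers tested went from 0.04 to -0.22. The part of these markers in the values of the ligands was not tested.

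The promoters of ANGPTL4, KITLG and PDGFA, which had lower FPKM in siPSCA, and of VEGFB and FGFBP1, which had higher FPKM, are shown so that their base composition can be compared. RefSeq promoters on GRCh38.p14 were matched for 7 of the 10 members, and none was matched for VEGFA, PDGFB and PDGFC. The 250 bases before the start are printed 5′ to 3′ on the strand of the gene. Capitals mark ACGTG or GCGTG on either strand, which reads CACGT or CACGC where the match is on the opposite strand; these are the core letters of the element bound by hypoxia-inducible factors. ANGPTL4 lies at chr19:8363905-8364154 on the plus strand, KITLG at chr12:88580472-88580721 on the minus strand, PDGFA at chr7:520227-520476 on the minus strand, VEGFB at chr11:64234334-64234583 on the plus strand and FGFBP1 at chr4:15938741-15938990 on the minus strand.
ANGPTL4: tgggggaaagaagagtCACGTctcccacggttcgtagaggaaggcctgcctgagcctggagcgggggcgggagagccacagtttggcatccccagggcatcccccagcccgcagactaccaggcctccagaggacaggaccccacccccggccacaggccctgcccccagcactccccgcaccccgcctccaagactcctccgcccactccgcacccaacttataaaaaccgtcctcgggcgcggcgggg
KITLG: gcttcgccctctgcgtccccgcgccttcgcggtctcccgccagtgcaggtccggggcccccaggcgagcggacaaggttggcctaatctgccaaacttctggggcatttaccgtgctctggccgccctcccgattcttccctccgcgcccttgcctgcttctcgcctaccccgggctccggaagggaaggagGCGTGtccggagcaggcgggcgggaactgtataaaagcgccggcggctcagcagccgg
PDGFA: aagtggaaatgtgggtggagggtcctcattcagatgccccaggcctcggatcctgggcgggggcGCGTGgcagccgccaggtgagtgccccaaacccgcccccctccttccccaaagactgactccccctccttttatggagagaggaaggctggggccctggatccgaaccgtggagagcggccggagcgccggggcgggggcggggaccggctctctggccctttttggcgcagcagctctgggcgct
VEGFB: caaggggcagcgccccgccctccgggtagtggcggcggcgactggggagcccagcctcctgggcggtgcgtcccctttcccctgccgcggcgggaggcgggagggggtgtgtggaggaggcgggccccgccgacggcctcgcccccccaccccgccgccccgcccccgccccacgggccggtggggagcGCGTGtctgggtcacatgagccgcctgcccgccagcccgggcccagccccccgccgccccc
FGFBP1: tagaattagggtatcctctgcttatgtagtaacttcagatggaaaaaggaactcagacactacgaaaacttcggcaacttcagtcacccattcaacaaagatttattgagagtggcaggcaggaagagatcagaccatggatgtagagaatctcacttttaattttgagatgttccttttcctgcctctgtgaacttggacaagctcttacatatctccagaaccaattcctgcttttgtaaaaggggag
The ANGPTL4 window holds 1 match, ACGTG on the opposite strand 234 bases before the start. KITLG holds GCGTG 58 bases before its start, and PDGFA holds GCGTG 186 bases before the start nearest to the 5′ end of its gene model, out of 4 starts that RefSeq lists. VEGFB, which stood higher in siPSCA, also holds GCGTG, 61 bases before its start, and FGFBP1 holds neither. Of the matched windows not printed, that of VEGFC, a gene with 0 reads, holds GCGTG on the opposite strand 59 bases before its start. That of PGF holds neither. Over 35116 promoters of the same length, 18.5% hold ACGTG, 32.2% hold GCGTG and 43.2% hold at least 1 of them, so a match here is a common feature. The FGFBP1 window is poor in GC (40.8%, with 2 CpG), whereas those of ANGPTL4, KITLG and PDGFA have 68.8%, 69.2% and 68.8% GC with 16, 26 and 17 CpG and that of VEGFB has 82.8% with 30 CpG, against a median of 58.0% and 11 CpG over all promoters. The windows of ANGPTL4 and KITLG lie inside the longer GENCODE gene models, so they precede the RefSeq start and not every annotated start.

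KITLG was the most abundant of the 10 transcripts by a wide margin and was lower in siPSCA. Its gene (ENSG00000049130) lies on the minus strand of chromosome 12 at chr12:88492793-88580851, and its longest coding transcript has 9 exons. KITLG had 290.0, 293 and 321 FPKM in NC 1 to 3 and 158, 168 and 175 FPKM in siPSCA 1 to 3. FPKM is a read count divided by gene length and by library size, so a comparison of levels between genes depends on the length used. All siPSCA libraries lay below all NC libraries. The mean was 301 ± 17.4 FPKM in NC and 167 ± 8.06 FPKM in siPSCA (SD, n = 3 each), which is 55.4% of the NC level, and the log2 fold change of FPKM + 1 was -0.85 (SE 0.06). In NC, KITLG ranked 57 among protein-coding genes and rested on 96203 reads over the group, and it took 82.7% to 86.1% of the reads of all members in any library. As this is bulk RNA, fewer cells that make a transcript and less of it per cell cannot be told apart.

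**Figure D1:**
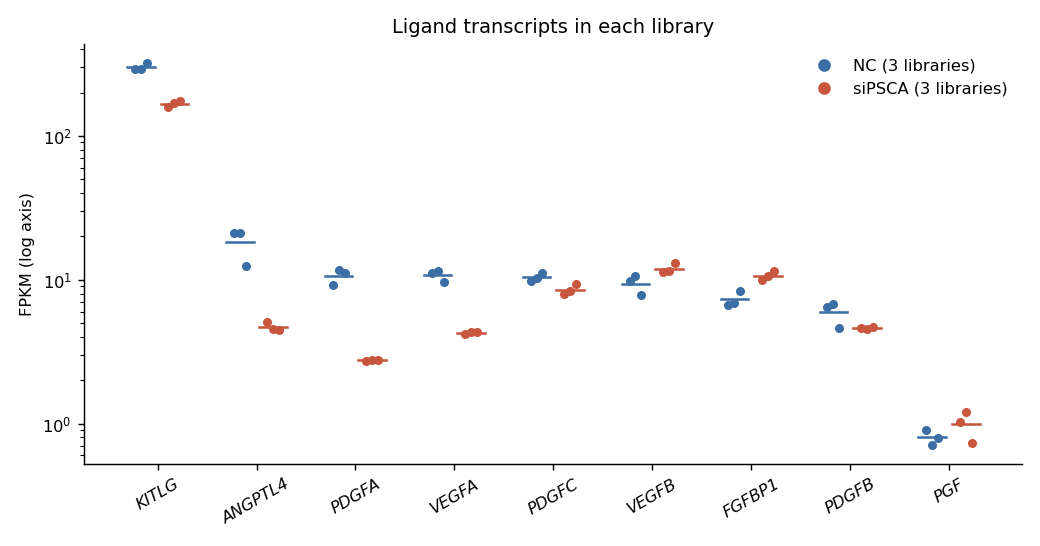
Level of each ligand transcript in FPKM on a log axis, with 1 point per library and a line at the mean of each group of 3; VEGFC is not drawn because it had 0 reads. KITLG lies far above the others (301 FPKM in NC), and the siPSCA points of KITLG, ANGPTL4, PDGFA, VEGFA and PDGFC lie below all NC points.

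Among the PDGF chains, PDGFA carried the largest difference. PDGFA (chr7:497258-520296, minus strand) had 9.22, 11.7 and 11.1 FPKM in NC and 2.73, 2.75 and 2.78 FPKM in siPSCA. The groups were far apart. The siPSCA libraries were nearly identical, on 192, 203 and 210 reads, so their small SD is no measure of counting error. The means were 10.7 ± 1.3 and 2.75 ± 0.0216 FPKM, a level 3.88-fold higher in NC, with a log2 fold change of -1.63 (SE 0.09).

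PDGFC, a chain that is activated by proteolysis after secretion, had 9.83, 10.2 and 11.1 FPKM in NC and 7.92, 8.33 and 9.39 FPKM in siPSCA. Its siPSCA libraries lay below its NC libraries by a small margin, with a log2 fold change of -0.26 (SE 0.08). PDGFB had 6.41, 6.76 and 4.58 FPKM in NC and 4.65, 4.55 and 4.7 FPKM in siPSCA. NC 3 lay within the range of the siPSCA libraries, so the groups overlapped, and the log2 fold change of -0.28 (SE 0.13) became -0.43 without NC 3.

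The summed FPKM of the 3 PDGF chains was 27.0 ± 1.62 in NC and 15.9 ± 0.826 in siPSCA (SD, n = 3 each). PDGFA made up 39.5% ± 2.85 of this sum in NC and 17.3% ± 0.747 in siPSCA, while PDGFC made up 38.6% ± 2.9 and 53.6% ± 1.99. With levels per length of the longest coding transcript, the share of PDGFA was 48.5% and 23.2%, and that of PDGFC was 35.4% and 53.5%.

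VEGFA (chr6:43770184-43786487, plus strand), the main VEGF of tumour cells, had 11.1, 11.5 and 9.57 FPKM in NC and 4.18, 4.3 and 4.36 FPKM in siPSCA. Its groups were separated by more than the whole spread within either. The means were 10.7 ± 1.01 and 4.28 ± 0.0907 FPKM, a level 2.5-fold higher in NC, and the log2 fold change was -1.15 (SE 0.08).

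VEGFB, which binds FLT1 and not KDR, had 9.75, 10.6 and 7.81 FPKM in NC and 11.3, 11.5 and 13.0 FPKM in siPSCA. Here the siPSCA libraries lay above the NC libraries, with a log2 fold change of 0.32 (SE 0.11), or 0.21 without NC 3. PGF, placental growth factor, had 90, 74 and 81 reads in NC and 104, 128 and 79 reads in siPSCA. Its mean of 0.894 FPKM over the 6 libraries was under the minimum of 1 for the fit across genes, and its groups overlapped at 0.8 ± 0.0933 and 0.989 ± 0.243 FPKM. VEGFC, a lymphangiogenic ligand, had 0 reads in every library, which allows a level of up to 0.0738 FPKM at 3 reads in a library, counting error only.

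The summed FPKM of VEGFA, VEGFB, VEGFC and PGF was 20.9 ± 2.44 in NC and 17.2 ± 0.826 in siPSCA. VEGFD, which was not among the members, had 0.731 FPKM in NC and 0.647 FPKM in siPSCA and is left out of this sum. VEGFA made up 51.3% ± 1.19 of that sum in NC and 24.9% ± 0.719 in siPSCA, and VEGFB made up 44.8% ± 1.77 and 69.3% ± 2.28. The share depends on the length by which reads are divided. The gene model of VEGFA has a length of 14431 bases over 26 protein-coding transcripts, whereas its longest coding transcript has 3535 bases, and with the latter length VEGFA made up 77.1% in NC and 51.5% in siPSCA, so it was then the larger share in both groups. The sum of the same genes on that length was 56.7 ± 5.72 in NC and 33.9 ± 0.913 in siPSCA, a wider gap than on the deposited length.

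**Figure D2:**
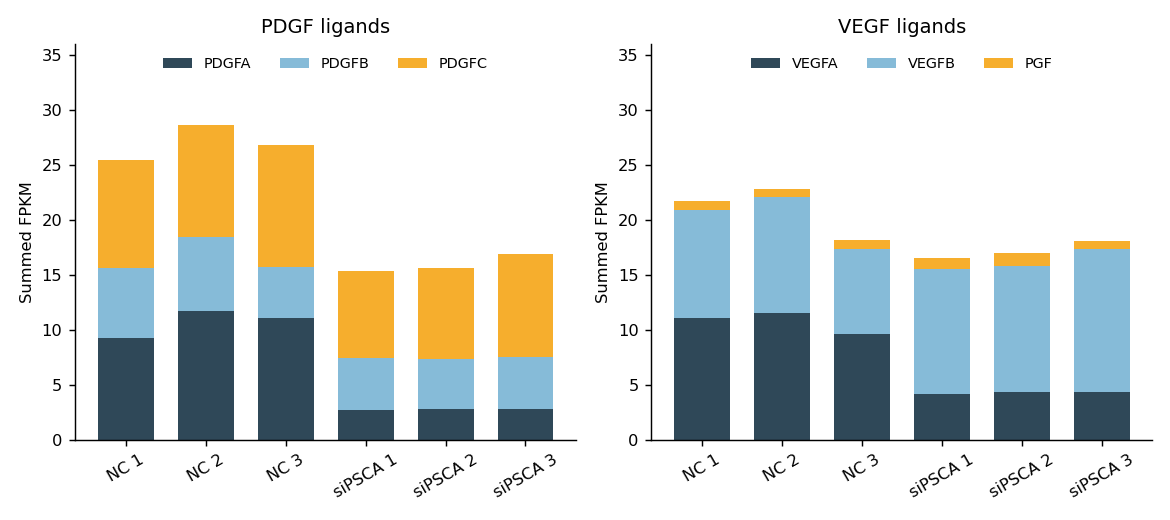
Summed FPKM of the PDGF chains (left) and VEGF ligands (right) in each of the 6 libraries, stacked by gene, with VEGFC at 0 and left out. The PDGFA and VEGFA blocks are shorter in every siPSCA library. The total for VEGF ligands, without VEGFD, is 20.9 FPKM in NC and 17.2 FPKM in siPSCA.

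ANGPTL4 (chr19:8363289-8374373, plus strand) had a fold change close to that of PDGFA, and the order of these 2 turned with the settings. It had 21.1, 21.2 and 12.4 FPKM in NC and 5.1, 4.51 and 4.45 FPKM in siPSCA. NC 3 was lower than NC 1 and NC 2, yet above every siPSCA library. The means were 18.3 ± 5.05 and 4.68 ± 0.358 FPKM, a level 3.9-fold higher in NC, and the log2 fold change of -1.73 (SE 0.20) was -1.97 without NC 3. Without NC 1 it was -1.61, against -1.73 for PDGFA, and with limma-voom on recovered reads -1.90 against -1.92.

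FGFBP1 (chr4:15935569-15938740, minus strand), whose protein carries fibroblast growth factors such as the bFGF supplied in the medium, stood higher in siPSCA. It had 6.66, 6.93 and 8.29 FPKM in NC and 9.92, 10.6 and 11.5 FPKM in siPSCA, on 510 and 769 reads per group. All siPSCA libraries lay above all NC libraries, with means of 7.29 ± 0.873 and 10.7 ± 0.8 FPKM and a log2 fold change of 0.50 (SE 0.09).

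In NC, the order of levels after KITLG was ANGPTL4, then VEGFA, PDGFA, PDGFC, VEGFB, FGFBP1 and PDGFB, then PGF and VEGFC. From VEGFA to PDGFB, neighbours in this order overlapped in their libraries. In siPSCA, KITLG was followed by VEGFB and FGFBP1, whose ranges overlapped, and PDGFA stood eighth. Per length of the longest coding transcript, VEGFA moved to the second place in both groups, at 43.7 ± 4.14 in NC and 17.5 ± 0.37 in siPSCA.

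Over the 8 members that passed the minimum of a mean FPKM of 1, 6 passed an adjusted p of 0.05 in limma with Benjamini-Hochberg adjustment over all genes, 5 lower and 1 higher, and 7 had groups without overlap. Of all 13796 genes tested, 50.7% passed, 24.2% lower and 26.6% higher, and 64.5% had groups without overlap. As the members were chosen with this contrast known, nothing is read from these counts. The gene lists below were also chosen with earlier results of these data known. Adjusted p-values and counts of listed genes are therefore given as a description and are no independent support. PGF and VEGFC did not reach that minimum and were not in the fit.

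Fold changes in these libraries moved with base composition. Across 13792 tested genes, the log2 fold change correlated with the GC content of the longest transcript at a Spearman coefficient of 0.664, which is a description across genes that share 6 libraries. KITLG and PDGFC, with 37.3% and 40.5% GC, lay at the end where most genes were lower in siPSCA, and VEGFB, with 66.7%, at the other end. A smooth trend on GC content and length was then taken out, and the log2 fold change was -2.33 (SE 0.08) for ANGPTL4, -1.81 (SE 0.09) for PDGFA, -1.25 (SE 0.05) for VEGFA and 0.53 (SE 0.08) for FGFBP1. It was then -0.52 for KITLG and -0.77 for PDGFB. VEGFB moved to -0.37 and PDGFC to 0.01, so these 2 lost or changed their direction. Whether the trend is technical was not tested.

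**Figure D3:**
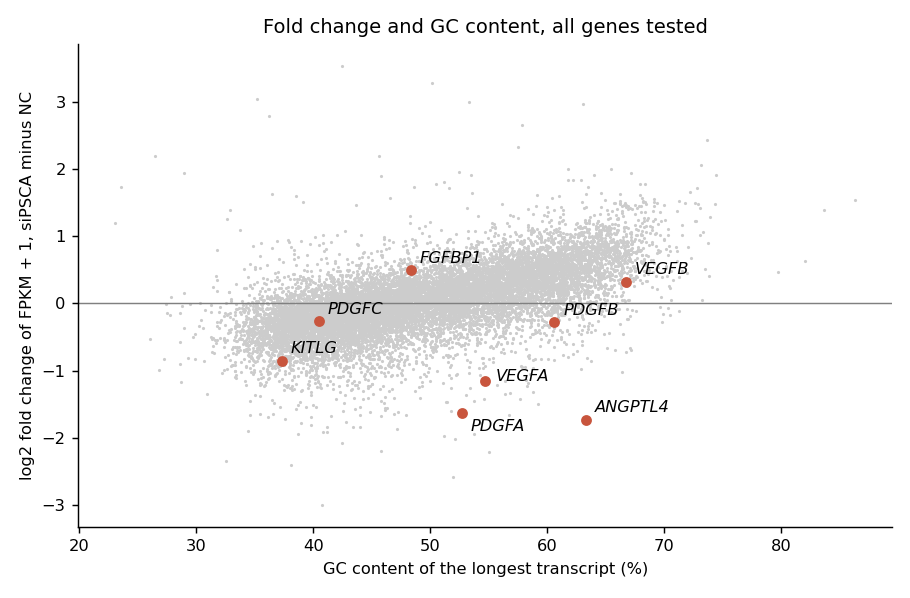
log2 fold change (siPSCA minus NC) against the GC content in percent of the longest transcript, with 1 grey point per tested gene and the 8 tested members in red. The cloud rises from left to right (Spearman 0.664), and ANGPTL4, PDGFA and VEGFA lie below it at 63.3%, 52.7% and 54.6% GC.

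**Figure D4:**
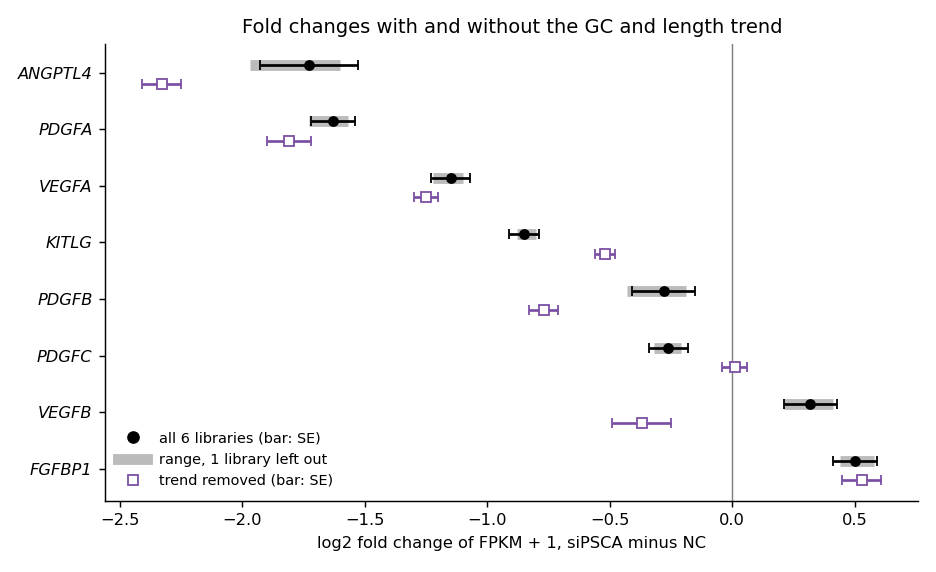
log2 fold change of FPKM + 1, siPSCA minus NC, for the 8 tested members, with black points for all 6 libraries, grey bands for the range when 1 library is left out, and open squares after the GC and length trend is removed; bars are SE. ANGPTL4, PDGFA, VEGFA and KITLG stay below 0 in all 3 forms and FGFBP1 above 0, whereas PDGFC moves to 0.01 and VEGFB to -0.37.

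For 3 members, ANGPTL4, PDGFA and VEGFA, the genes with the nearest profile were sought among 11078 protein-coding genes, as the smallest Euclidean distance between centred log2(FPKM + 1) values over the 6 libraries. ALDOC (0.482), FAM162A (0.604) and FUT11 (0.632) were nearest to ANGPTL4. ARFGEF3 (0.201), KDM7A (0.243) and ARRDC3 (0.243) were nearest to PDGFA, and EDEM1 (0.122), IGIP (0.13) and WSB1 (0.152) to VEGFA. These distances rest on 2 groups of 3 libraries and are descriptive.

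The receptors that these ligands are known to bind were mostly at or near the floor in the same cells. KIT had 0 reads in NC and 4 reads in siPSCA over 3 libraries each, and PDGFRA had 0 reads in all. PDGFRB had 27 and 37 reads, FLT1 3 and 1, KDR 21 and 7, FLT4 21 and 12, and NRP2 30 and 18. The co-receptor NRP1 was expressed at 2.79 ± 0.401 FPKM in NC and 2.71 ± 0.143 FPKM in siPSCA (SD, n = 3 each), a difference that did not pass limma (-0.03, adjusted p = 0.82, and 0.16 with the trend removed). Thus KITLG was carried at 301 FPKM beside a receptor whose reads were 0 in NC, which allows at most 0.0321 FPKM at 3 reads in a library.

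**Figure D5:**
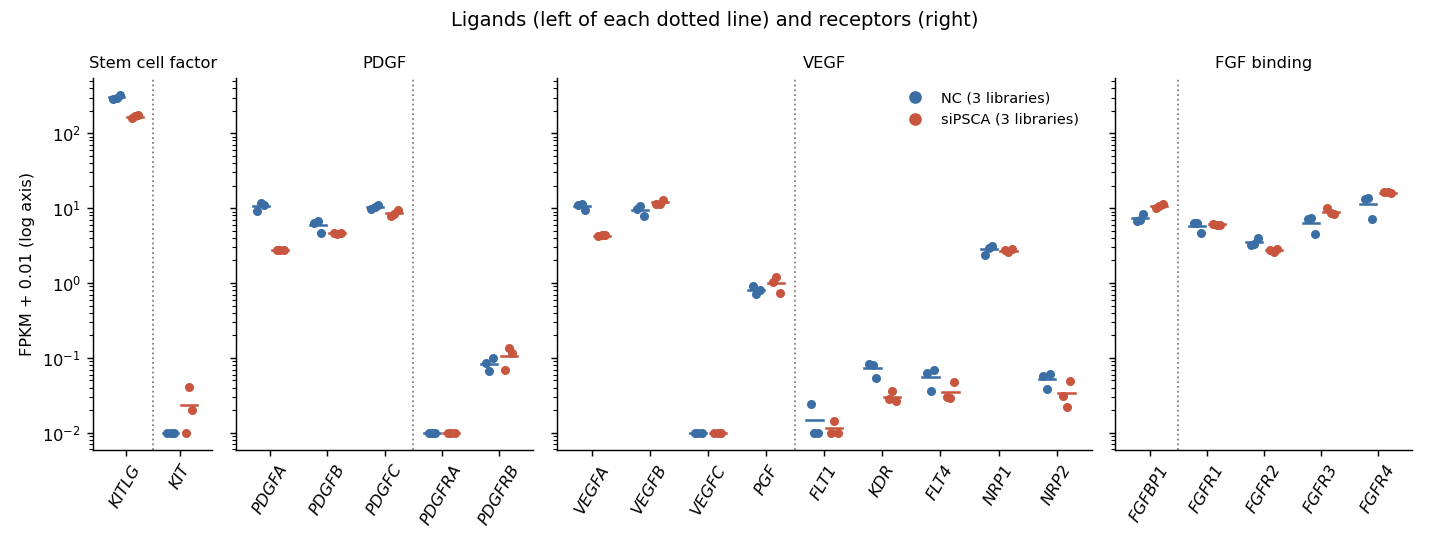
Ligands left and receptors right of each dotted line, in FPKM + 0.01 on a log axis, with 1 point per library and a line at each group mean. KITLG, the PDGF chains and VEGFA and VEGFB lie at 2.73 FPKM or above in every library, while KIT, PDGFRA, PDGFRB, FLT1, KDR, FLT4 and NRP2 lie at 0.126 FPKM or below.

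FGF receptors, the targets of the factors that FGFBP1 carries, were present. FGFR1 had 5.79 and 6.07 FPKM in NC and siPSCA (adjusted p = 0.633), FGFR3 had 6.34 and 9.0 FPKM (adjusted p = 0.0618) and FGFR4 had 11.4 and 16.1 FPKM (adjusted p = 0.1, limma). Without NC 3 both passed, FGFR3 at 0.27 (adjusted p = 0.0341) and FGFR4 at 0.24 (adjusted p = 0.00544). With the GC and length trend removed their direction turned, to -0.06 for FGFR3 and -0.08 for FGFR4, and FGFR4 was at -0.20 (adjusted p = 0.0153) when NC 3 was left out as well. FGFR2 fell from 3.48 ± 0.425 to 2.74 ± 0.112 FPKM (log2 fold change -0.26, SE 0.09, adjusted p = 0.0461 in limma), a call lost under 10 of its 15 alternatives. The adjusted p was 0.116 without a minimum, 0.0519 with a minimum of 0.5, 0.0595 with TPM, 0.0551 with the replicate block, 0.051 with the trend removed and NC 3 left out, and 0.0612 to 0.138 when NC 2, NC 3 or a siPSCA library was left out. FGFRL1, a receptor-like protein without a kinase domain, rose from 16.9 ± 3.04 to 28.3 ± 0.949 FPKM (0.73, SE 0.13, adjusted p = 0.00551 in limma), and after the GC and length trend was removed the change was 0.12 (adjusted p = 0.0593). Of the 14 receptors listed, 7 were tested, 1 rose and 1 fell, with a median log2 fold change of 0.07 against 0.01 over all genes tested. Over all genes tested 26.6% were called higher and 24.2% lower.

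Other ligands of these and neighbouring families were listed for comparison, with 8 of 35 tested, of which 2 rose and 2 fell. Over all genes tested 26.6% were called higher and 24.2% lower. This list and those that follow were chosen with earlier results known, so their adjusted p-values are descriptive. ADM, adrenomedullin, a vasodilator peptide, fell from 35.7 ± 5.38 to 16.6 ± 1.38 FPKM (log2 fold change -1.05, SE 0.12, adjusted p = 0.00166 in limma), and by 1.45 with the trend removed. ANG, angiogenin, fell from 1.62 to 0.691 FPKM (-0.63, adjusted p = 0.0155 in limma, lost without siPSCA 2 at 0.0554); it shares exons with a neighbouring ribonuclease gene, so its reads are uncertain. MDK, midkine, a heparin-binding factor, rose from 50.7 to 76.5 FPKM (0.58, adjusted p = 0.00184 in limma), and at 0.06 with the trend removed it was no longer called (adjusted p = 0.683). The other riser was EFNA1, an ephrin (0.29), which turned to -0.10 with the trend removed.

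Processing enzymes of the ligands gave 7 tested of 13, 2 higher and 2 lower, against 26.6% higher and 24.2% lower over all genes tested. ADAM10, a membrane sheddase, fell from 12.1 to 8.26 FPKM (-0.50, adjusted p = 0.00177 in limma), but by 0.07 with the trend removed (adjusted p = 0.236). ADAM17, which sheds membrane ligands, fell by 0.45, and the proteases PLAU and MMP14 rose by 0.31 and 0.47, and with the trend removed these 3 were at -0.08, 0.08 and 0.07. Among inhibitors of vessel growth and of the receptors, 13 of 17 were tested, 2 rose and 6 fell, beside the same 26.6% and 24.2% over all genes. The semaphorins SEMA3A and SEMA3C, neuropilin ligands, fell by 0.93 (adjusted p = 0.00182 in limma) and by 0.74 (adjusted p = 0.00141), or by 0.56 and 0.43 with the trend removed, both still called. COL18A1, the source of endostatin, rose from 6.97 ± 3.05 to 14.4 ± 0.628 FPKM (1.03, adjusted p = 0.0298 in limma), which was 0.33 with the trend removed (adjusted p = 0.0979) and lost its call when a siPSCA library was left out (0.0701 to 0.0889). The other riser was SEMA3F (0.38), which turned to -0.18 with the trend removed. The other fallers were SERPINF1 (-0.38), TIMP1 (-0.26), SPRY4 (-0.38) and SPRED1 (-0.38). With the trend removed they were at -0.67, -0.56, -0.43 and -0.05. Of the 7 lipase partners of ANGPTL4, LMF1 alone was tested, at 1.2 and 1.55 FPKM (0.22, adjusted p = 0.173 in limma, and -0.27 with the trend removed), and LPL, the lipase it inhibits, had 0 reads in every library.

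Regulators that are known to act on these ligand genes or their transcripts gave 17 tested of 18, 5 higher and 3 lower, with a median log2 fold change of 0.01. EGR1, an immediate early factor that binds the PDGFA promoter, fell from 52.1 ± 8.81 to 29 ± 0.701 FPKM (-0.81, SE 0.12, adjusted p = 0.00368 in limma), and by 1.09 with the trend removed. ZFP36L2, which promotes decay of AU-rich transcripts, rose from 9.56 to 14 FPKM (0.52, adjusted p = 0.0202 in limma, 0.0816 with the trend removed and 0.0527 to 0.0693 when a siPSCA library was left out). The other risers were HNRNPL (0.41), ARNT2 (0.36), ZFP36 (0.30) and ELAVL1 (0.22), and SP1 and ARNT fell by 0.45 and by 0.29. With the trend removed ZFP36 was at -0.01 and SP1 at -0.30, and the other 4 kept their direction at 0.38, 0.27, 0.30 and -0.25 for HNRNPL, ARNT2, ELAVL1 and ARNT. HIF1A and EPAS1, the oxygen-regulated subunits, are named after their values were seen: HIF1A had 65.1 and 67.9 FPKM (adjusted p = 0.447 in limma) and EPAS1 had 8.87 and 7.93 FPKM (adjusted p = 0.053). With the trend removed their log2 fold changes went from 0.06 to 0.37 (SE 0.04) and from -0.15 to -0.25 (SE 0.05).

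Genes of signalling below the receptors gave 22 tested of 24, 6 higher and 7 lower, against 26.6% higher and 24.2% lower over all genes tested. SRC rose by 0.74 (adjusted p = 0.0079 in limma), AKT1 by 0.52 (0.00384) and SHC2 by 0.60 (0.0281), and with the trend removed SRC was at 0.37 and still called (0.00969), AKT1 at 0.08 (0.261) and SHC2 at -0.23 (0.197). The call of SHC2 was also lost without NC 2, siPSCA 1 or siPSCA 2 (0.0627 to 0.0927). PIK3CA, the catalytic subunit of PI3K, fell by 0.70 (adjusted p = 0.00136 in limma), SOS1 by 0.65 (0.00332) and SOS2 by 0.50 (0.00663), and with the trend removed PIK3CA was at -0.33 and SOS1 at -0.28, both still called, and SOS2 was at -0.21 and no longer called (0.0586).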

How the data were processed

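RNA of HCT116SCs was sequenced in 6 libraries (NC, n = 3, and siPSCA, n = 3), grouped by the labels. The authors deposited 1 table of FPKM values per gene, and the paper's methods name the NEBNext Ultra kit and paired-end Illumina sequencing, without a statement on strand. The aligner and counting program are not given in the sources used here. The submitters' processing notes name GRCh38, and all 58735 gene positions were those of GENCODE release 29. FPKM times gene length gave whole reads for 100% of values (tolerance 0.01), so reads per gene and library totals of 16803235 to 18218661 were recovered. Antisense genes overlap exons of KITLG (80 bases), VEGFA (188) and ANGPTL4 (1), and without strand their reads cannot be told apart.

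Using R 4.3.3 and limma 3.58.1, log2(FPKM + 1) values were modelled by lmFit and by eBayes with a mean-variance trend, keeping the 13796 genes that reached an average FPKM of 1, with Benjamini-Hochberg adjustment and a threshold of 0.05, 2-sided. On this scale the change of low genes is understated. PGF was taken from the fit without the minimum. An exact permutation test of 3 against 3 libraries cannot go below 0.1 and was not used. Tables were handled with pandas 2.3.3 and numpy 2.4.6 in Python 3.11.15, and figures were drawn with matplotlib 3.10.9. The fit was also run on simulated data with independent noise in each gene and no GC trend. That run does not vouch for the calls made here. Promoters and starts are from RefSeq. The members and gene lists were chosen with earlier results of these data known, so adjusted p-values of listed genes are descriptive. Named genes were the members, their receptors, FGFR1 to FGFR4, up to 3 genes per list and direction with an adjusted p under 0.05 and a log2 change of at least 0.5, and the nearest profiles of the 3 members with the largest changes. Genes outside this rule, such as HIF1A, EPAS1, CD44, EPCAM, LMF1 and the remaining calls of short lists, were named after their values were seen. The alternatives are given in the closing section.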

Additional observations from a re-analysis of the deposited data

How the results depend on the processing

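Of the 123 alternative fold changes of the members, 4 changed sign: PDGFC at 0.01 and VEGFB at -0.37 with the GC and length trend removed, and 0.02 and -0.28 with NC 3 left out as well. That last alternative and the use of the longest coding transcript were added after the data were seen. With the trend removed and NC 3 left out, KITLG was at -0.50 and PDGFB at -0.80; the cause was not tested. The genes past the threshold numbered 7001, and 4610 (without siPSCA 1) to 7410 when a library was left out. The receptors past it numbered 2, against 1 without a minimum, with a minimum of 0.5 and with TPM, 4 with limma-voom on recovered reads, and 1 to 3 when a library was left out. Of 360 alternative values of other named genes, 36 lost the call, 7 gained one and 11 changed sign, in FGFR1, FGFR3, FGFR4, NRP1 and SHC2, all with the trend removed, NC 3 left out or both. FGFR4 was at -0.20 under both, and SHC2 at -0.23 and -0.14 under the trend removal without and with that omission. Whether equal replicate numbers mark paired samples is not stated. Deviations from the group means correlated at 0.0955, 0.0132 and 0.134 for same-number libraries and at -0.131 to 0.0417 for the others. With 3 libraries per group such deviations depend on each other, so these values cannot decide it. With the replicate as a block 6725 genes passed. PGF was left out of the fit by the FPKM minimum, and VEGFC had no reads.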
